A study of Homo sapiens with 11 samples.

Results

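The 10 phosphate transport genes were taken by name from the RNA-seq annotation of HK2 cells, out of 58288 genes and 19646 protein-coding genes. They are the sodium-phosphate cotransporters SLC34A1, SLC34A2, SLC34A3, SLC20A1 and SLC20A2, the phosphate exporter XPR1, the scaffold proteins SLC9A3R1 (also called NHERF1) and PDZK1, and FGFR1 and KL, which encode the receptor and co-receptor of the hormone FGF23. All 10 were found by name and by Ensembl identifier. HK2 is an immortalised line of human proximal tubule epithelium, 1 line and not tissue, and all samples were grown in 1 condition, with dimethyl sulfoxide in the medium. RNA was measured in 2 RNA-seq libraries, and peaks of H3K4me3, H3K27ac and H3K27me3 were called in 2 replicates of each mark. No group of samples was compared with another, so every value here is a description without a test.

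The proximal tubule takes back most of the phosphate that the glomerulus filters. SLC34A1 (NaPi-IIa) and SLC34A3 (NaPi-IIc) carry it across the brush border with sodium, while SLC20A1 (PiT-1) and SLC20A2 (PiT-2) do the same in most cell types and SLC34A2 (NaPi-IIb) does so mainly in intestine and lung. SLC9A3R1 and PDZK1 hold SLC34A1 at the apical membrane through PDZ domains. FGF23 from bone binds FGFR1 together with klotho, the product of KL, and lowers the amount of SLC34A1 and SLC34A3 at the membrane. XPR1 releases phosphate from the cell.

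The 3 SLC34 genes were near the lower end of the RNA range in HK2 cells, and the other 7 genes were above the median of protein-coding genes. A gene was called expressed when its FPKM (fragments per kilobase of transcript, scaled to the mapped fragments of the library) was at least 1 in both libraries. By this rule 7 of 10 genes were expressed, beside 58.8% of all protein-coding genes. The median over the 10 genes was 12.5 FPKM, beside 3.32 FPKM over all protein-coding genes and 11.1 FPKM over the expressed ones. The lowest value of an expressed gene was 46.0 times the highest value of an SLC34 gene in either library. Less RNA per cell and fewer cells with the RNA cannot be told apart in bulk libraries.

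**Figure D1:**
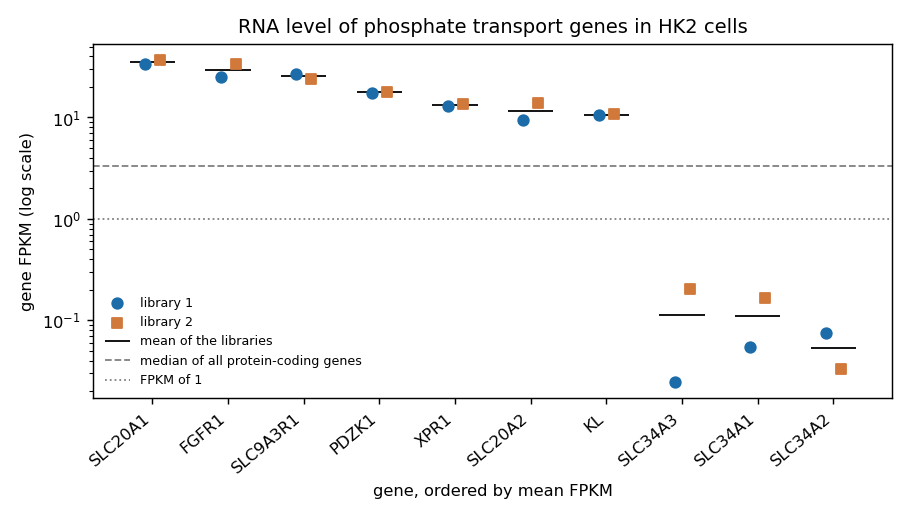
Gene FPKM (log axis) of the 10 phosphate transport genes in library 1 (circles) and library 2 (squares), with the mean of the 2 libraries as a bar. The 7 expressed genes lie between 9.34 and 36.8, above the protein-coding median of 3.32, and the 3 SLC34 genes lie at or below 0.203.

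Among the importers, SLC20A1 had the highest level, with 33.4 FPKM in library 1 and 36.8 in library 2 (35.1 ± 2.39, SD, n = 2, percentile 90.8 of protein-coding genes). SLC20A2 had 9.34 and 13.9 FPKM (11.6 ± 3.21, percentile 71.4). SLC20A1 was thus 3.58 times SLC20A2 in library 1 and 2.65 times in library 2, and the ranges of these genes over the libraries did not overlap. The ratios depend on how reads were divided among transcripts of different length. The SLC34 genes carried almost none of the importer RNA. SLC34A1 had 0.0540 and 0.164 FPKM, SLC34A2 had 0.0745 and 0.0328 FPKM, and SLC34A3 had 0.0245 and 0.203 FPKM, at percentiles 26.9 to 30.1. Summed over the family, SLC34 reached 0.153 and 0.4004 FPKM, against 42.8 and 50.7 for SLC20. The 3 SLC34 values overlapped between genes, so they have no order among themselves.

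The sequence aligned to an SLC34 gene was small in both libraries. Coverage multiplied by transcript length came to 0.894 and 2.46 kb for SLC34A1, 0.300 and 0.747 kb for SLC34A2, and 0.300 and 2.42 kb for SLC34A3, against 131 to 607 kb for the expressed genes. The same sum over all transcripts was 4.54 Gb in library 1 and 4.42 Gb in library 2. At this depth a transport gene with very few transcripts per cell cannot be told apart from one without any.

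The exporter XPR1 had 13.1 and 13.7 FPKM (13.4 ± 0.410, percentile 74.5). Of the scaffolds, SLC9A3R1 had 26.99 and 24.1 FPKM (25.5 ± 2.06, percentile 86.4) and PDZK1 had 17.4 and 17.9 FPKM (17.7 ± 0.303, percentile 80.1). Both scaffolds of SLC34A1 were expressed in libraries with almost no SLC34A1 RNA. For FGF23 reception, FGFR1 had 25.04 and 33.6 FPKM (29.3 ± 6.07, percentile 88.4) and KL had 10.5 and 10.8 FPKM (10.7 ± 0.174, percentile 69.7). In the order of mean level, SLC20A1, FGFR1 and SLC9A3R1 were neighbours whose library ranges overlapped, as did XPR1 with SLC20A2 and SLC20A2 with KL. SLC9A3R1 and PDZK1, PDZK1 and XPR1, and KL and SLC34A3 did not overlap. Over 8732 protein-coding genes of mean FPKM at least 5, the libraries differed by a median of 0.11 on the log2 scale and a 95th percentile of 0.52. SLC20A2, at 0.57, was above that percentile, and FGFR1, at 0.43, was near it, so their levels were the least steady of the 7 between libraries. The order by FPKM also depends on transcript length, because each transcript is scaled to its own length. PDZK1 had 132 and 131 kb of aligned sequence, against 544 and 553 kb for XPR1 and 283 and 289 kb for KL. Most PDZK1 FPKM was assigned to a transcript of 1010 bases, while the leading transcripts of XPR1 and KL have 8474 and 5006. Whether PDZK1 keeps its place above them at another length was not tested.

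Reads from neighbours and copies could enter some of these sums. PDZK1 has a near-identical copy, PDZK1P1, listed at 3.18 and 3.66 FPKM. How reads were divided between PDZK1 and this copy was not measured, so the size of the uncertainty in the PDZK1 level is unknown. SLC20A1 has 3 pseudogene copies, all listed at 0. SMIM19, which starts beside SLC20A2, had 3.27 and 4.79 FPKM. LETM2, beside FGFR1, had 4.05 and 2.82 FPKM, and SLC9A3R1-AS1, at the start of SLC9A3R1, had 4.49 and 4.42 FPKM. Whether the library preparation kept the strand is not given in the sources used here, so reads of these overlapping genes may not be separable.

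The transcripts that carried the RNA were steady between libraries for most of the expressed genes. KL RNA came mostly from ENST00000380099, the canonical transcript, at 85.0% and 91.6% of its FPKM, and the rest, 15.0% and 8.38%, from ENST00000487852. The latter has an exon 3 that is 50 bases longer. This is the alternative transcript known from earlier work to predict a shorter, secreted klotho, and the annotation used here gives it no coding sequence. XPR1 was divided between ENST00000367590, at 73.4% and 74.0%, and ENST00000367589, at 26.5% and 25.1%, which lacks the 195-base exon 11, a whole number of codons in length.

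PDZK1 was led by a short transcript of 1010 bases and 6 exons, ENST00000443667, with 57.1% and 57.7%. ENST00000344770 followed with 28.7% and 22.4%, but its first exon, of 71 bases, had a coverage of 3.04 and 4.14 and its last, of 505 bases, 0.143 and 0.124, while exons 2 to 8 lay between 24.2 and 60.5 in library 1. The first exon of ENST00000443667, of 131 bases, had a coverage of 15.6 and 18.2. The canonical transcript, ENST00000417171, had 2.70% and 7.55%. StringTie estimates these shares from reads that several transcripts have in common, such as those of the 4 exons that these leading transcripts of PDZK1 both have. SLC20A1 and SLC9A3R1 were led by their canonical transcripts, with 77.3% and 82.5% for the first and 93.8% and 97.0% for the second. SLC20A2 was led by ENST00000342228, with 61.0% and 41.4%, and its canonical transcript had 0.232% and 0. Its ENST00000524237, of 545 bases, had 0.0818 FPKM in library 1 and 3.19 in library 2. The aligned sequence of SLC20A2 was 136 and 149 kb, so its FPKM sum also depends on the split into transcripts.

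FGFR1 did not have a steady leading transcript. Of its 41 annotated transcripts, ENST00000526570, a retained intron, led in library 1 with 31.5% and had 0.163% in library 2. ENST00000397103, a coding transcript, was listed at 0 in library 1 and led library 2 with 48.1%. The split of FGFR1 into transcripts cannot be read, and its FPKM sum depends on that split, because each transcript is scaled to its own length. The aligned sequence was 522 kb in library 1 and 509 kb in library 2, while the FPKM sum was 25.04 and 33.6. The leading transcript was the same in both libraries for 8 of 10 genes, the exceptions being FGFR1 and SLC34A2. The share of all protein-coding genes that kept their leading transcript is not given, so this count has no background. SLC34A1 and SLC34A3 are among the 8 on very little aligned sequence.

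**Figure D2:**
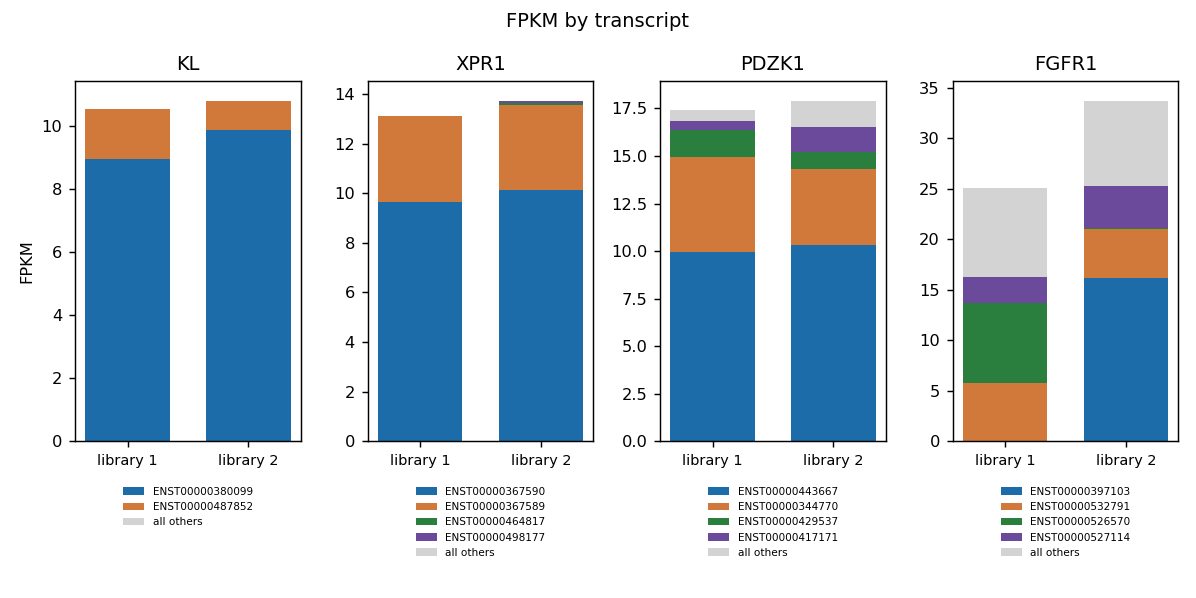
FPKM of KL, XPR1, PDZK1 and FGFR1 stacked by transcript, for libraries 1 and 2, with the 4 transcripts of highest mean FPKM in colour and all others in grey. KL, XPR1 and PDZK1 keep their leading transcript, and FGFR1 has ENST00000397103 at 0 in library 1 and 48.1% in library 2.

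For SLC34A1, the few reads did not describe the full transporter transcript. In library 1, 100% of its FPKM was assigned to ENST00000513614, a 4-exon transcript without an annotated coding sequence that starts inside the gene, and in library 2 it had 58.5%. The canonical transcript ENST00000324417 was listed at 0 in library 1 and had 31.8% in library 2, with coverage in 0 and 4 of its 13 exons. SLC34A3 reads were all assigned to ENST00000538474, with coverage in 1 of 13 exons in library 1 and 9 of 13 in library 2. SLC34A2 changed from ENST00000513204, with 92.8%, to ENST00000382051, with 100%.

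At the start sites, marks of activity were found at the expressed transporters and at KL in both replicates. H3K4me3 marks promoters, H3K27ac marks active promoters and enhancers, and H3K27me3 marks repressed regions. An active promoter was taken as a peak of H3K4me3 and one of H3K27ac within 1 kb of the same annotated start site, in both replicates of each mark. SLC20A1, SLC20A2, XPR1 and KL met this rule, which is 4 of 10, beside 52.5% of protein-coding genes. With replicate 1 alone SLC9A3R1, PDZK1, FGFR1 and SLC34A1 were added, for 8 of 10 beside 64.8%, and with replicate 2 alone the count was 4, beside 52.7%.

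All 7 expressed genes had both marks in replicate 1, as did 97.2% of expressed protein-coding genes. In both replicates 4 of 7 had them, beside 82.4%. The 3 that lacked a mark in replicate 2 were SLC9A3R1 and FGFR1, without H3K27ac at any start site, and PDZK1, without H3K4me3. Of all expressed protein-coding genes, 14.7% were active in replicate 1 and not in replicate 2. The replicate 2 list of H3K27ac held 38639 peaks with a median width of 657 bp, against 57761 peaks of 1357 bp in replicate 1, and the part this played in the missing peaks was not tested. The H3K4me3 list of replicate 2 held 73942 peaks of 435 bp against 29130 of 1166 bp in replicate 1, and no peak at a PDZK1 start. How the number of peaks in a list relates to the finding of weak regions was not tested. For both marks the paper reports fewer aligned reads, and a smaller share of reads inside peaks, in the replicate that lacked these peaks. The part of this in the missing PDZK1 peak was not tested either.

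**Figure D3:**
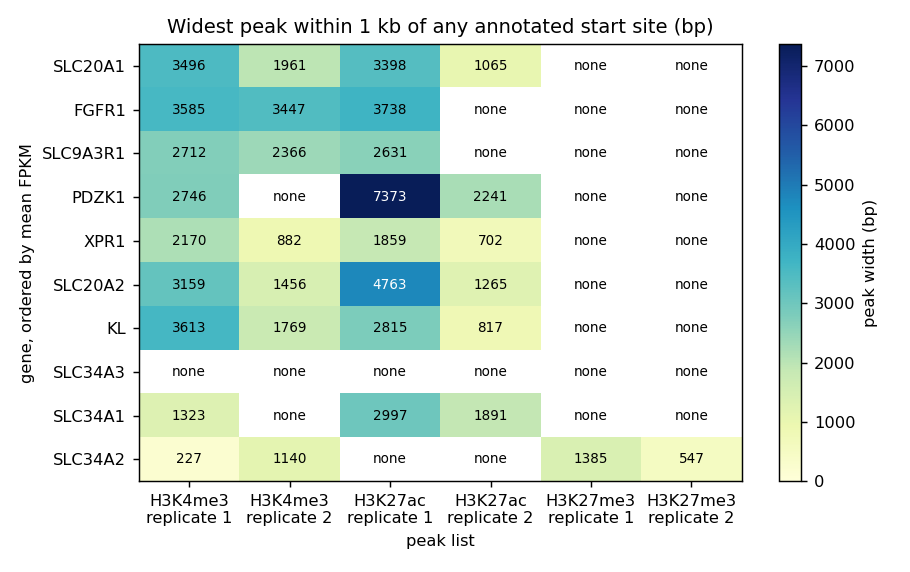
Width in bp (colour scale and printed number) of the widest peak within 1 kb of any annotated start site, for the 10 genes in order of mean FPKM and the 6 peak lists. The 7 expressed genes have H3K4me3 and H3K27ac peaks in replicate 1, SLC34A3 has no peak in any list, and only SLC34A2 has H3K27me3 peaks.

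Peak widths differed between the marked genes. KL (hg19 chromosome 13, 33590561 to 33640280, plus strand) had H3K4me3 peaks of 3613 and 1769 bp over its start. Its H3K27ac peak of 2815 bp in replicate 1 also covered the start, and that of 817 bp in replicate 2 began 213 bp downstream of the canonical start. SLC20A1 (chromosome 2, 113403516 to 113421402, plus strand) had H3K4me3 peaks of 3496 and 1961 bp and H3K27ac peaks of 3398 and 1065 bp. XPR1 (chromosome 1, 180601158 to 180859415, plus strand) had narrower peaks, with 2170 and 882 bp of H3K4me3 and 1859 and 702 bp of H3K27ac. These XPR1 peaks lay at percentiles 19.7 to 45.1 of the widest peaks at the canonical starts that carry the mark, and those of SLC20A1 at 58.9 to 86.3. FGFR1 (chromosome 8, 38257733 to 38326352, minus strand) had an H3K4me3 peak of 3447 bp in replicate 2, at percentile 98.7, while the H3K27ac list of that replicate had no peak there.

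PDZK1 (chromosome 1, 145726918 to 145764207, on the plus strand in hg19) had the widest H3K27ac peaks within 1 kb of a start among the 10 genes, 7373 bp in replicate 1 and 2241 bp in replicate 2. They lay at percentiles 96.9 and 92.2 of H3K27ac peaks at marked starts. The annotated start of the leading PDZK1 transcript, 145726918, lay inside both peaks. SLC20A2 (chromosome 8, 42273993 to 42397069, minus strand) had its marks at the starts near 42397069, where its leading transcript begins, and none at its canonical start. SMIM19 starts within 1 kb of them, and the marks of the 2 genes cannot be told apart.

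Among the SLC34 genes, each had its own combination of marks. SLC34A3 (chromosome 9, 140125209 to 140131007, plus strand) had no peak of any mark within 1 kb of a start in the 6 lists, as had 15.1% of protein-coding genes. The nearest H3K27ac peaks to its canonical start were 3378 and 6836 bp away. SLC34A1 (chromosome 5, 176806236 to 176825849, plus strand) had no peak within 1 kb of its canonical start at 176811435 either. It had H3K27ac in both replicates at its most upstream start, 176806236, and at the internal start, 176816648, where ENST00000513614 begins. At the internal start H3K4me3 was present in replicate 1, with 1323 bp, and absent in replicate 2. The region with H3K27ac in both replicates there was chr5:176815994-176817553, of which 875 of 1560 bp lay in annotated exons of SLC34A1.

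SLC34A2 (chromosome 4, 25649633 to 25680370, plus strand) had H3K4me3 near its canonical start in both replicates, 227 bp wide in the first and 1140 bp in the second, and no H3K27ac within 1 kb of a start. The 227 bp peak was at percentile 0.496 of H3K4me3 peaks at marked starts. It was also the only one of the 10 genes with H3K27me3 near a start. Those peaks lay at different places, 1385 bp from 25658266 in replicate 1 and 547 bp from 25650018 in replicate 2, and 1 of 10 genes in each replicate stands beside 14.5% of protein-coding genes in replicate 1 and 13.0% in replicate 2. In all, 0 of 10 genes had H3K27me3 at the same start in both replicates, beside 11.2% of protein-coding genes. Both H3K27me3 peaks lay in introns. H3K4me3 peaks were found near a start in both replicates in 7 of 10 genes, beside 70.0%, and H3K27ac in 6 of 10, beside 55.0%. In replicate 1 alone 9 of 10 had H3K4me3, beside 71.9%, and 8 had H3K27ac, beside 67.5%. In replicate 2 alone the counts were 7, beside 78.0%, and 6, beside 55.1%.

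**Figure D4:**
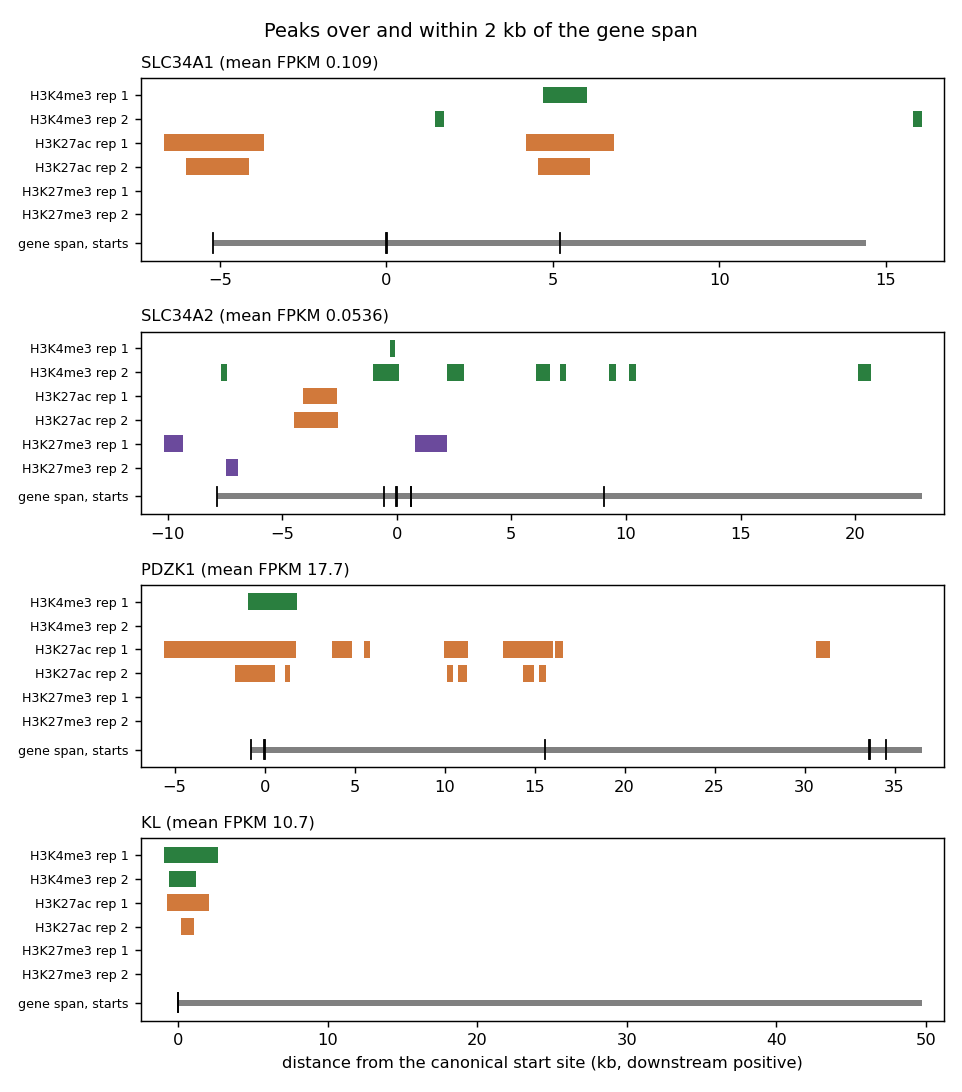
Peaks of each list over SLC34A1, SLC34A2, PDZK1 and KL and within 2 kb of them, by distance from the canonical start site in kb (downstream positive), with the gene span in grey and annotated starts as black ticks. SLC34A1 has H3K27ac in both replicates on either side of a bare canonical start, PDZK1 has repeated H3K27ac peaks along the gene, and KL has peaks at its start only.

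Within the gene bodies, H3K27ac was present in both replicates in 8 of 10 genes, beside 59.4%. Leaving out peaks within 1 kb of start sites, 5 of 10 kept an H3K27ac peak in each replicate, beside 22.0%: SLC34A2, SLC20A2, XPR1, PDZK1 and FGFR1. The 22.0% did not require the peaks of the replicates to overlap. In these 5 genes they did, and the regions below are the overlaps. Long genes meet more peaks by length, and XPR1 and SLC20A2 span 258258 and 123077 bp. The XPR1 regions, chr1:180720605-180721251 and chr1:180721566-180721857, lay in an intron 119 and 120 kb downstream of the start, without H3K4me3 in either replicate. PDZK1 had 2 intronic regions, of 362 and 471 bp, from 10.1 kb downstream of the canonical start. In SLC20A2 the region was 392 bp, in an intron 7.96 kb downstream of the canonical start. SLC34A2 had 1495 bp of H3K27ac in both replicates, chr4:25653378-25654872, inside an intron, at -4.095 kb from the canonical start. The FGFR1 regions lay at the far end of the gene, where LETM2 starts within 1 kb. SLC20A1, KL, SLC9A3R1, SLC34A1 and SLC34A3 had no such region.

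The sequence in front of the canonical start differed between the genes in CpG content, a feature that went into no step above. Over 250 bases before the canonical start, the ratio of observed to expected CpG had a median of 0.753 over 19546 protein-coding promoters, 0.849 for expressed genes and 0.385 for the others. KL (0.950), SLC20A1 (0.949) and SLC9A3R1 (0.963) were at percentiles 81.2 to 83.1. SLC34A1 (0.222) and SLC34A3 (0.298) were at percentiles 14.4 and 19.3. PDZK1, with 17.7 FPKM, had the lowest ratio of the 10 genes, 0.163 at percentile 10.2, and SLC34A2, with 0.0536 FPKM, had the highest, 1.10 at percentile 95.6. XPR1 had 0.550 and FGFR1 0.724. These values belong to canonical starts and the FPKM to whole genes. The canonical transcript held 2.70% and 7.55% of the FPKM of PDZK1 and 0.0641% and 0.114% of that of FGFR1. The value of SLC20A2, 0.416, was taken at a canonical start without a mark, whose transcript held 0.232% and 0 of the FPKM.

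**Figure D5:**
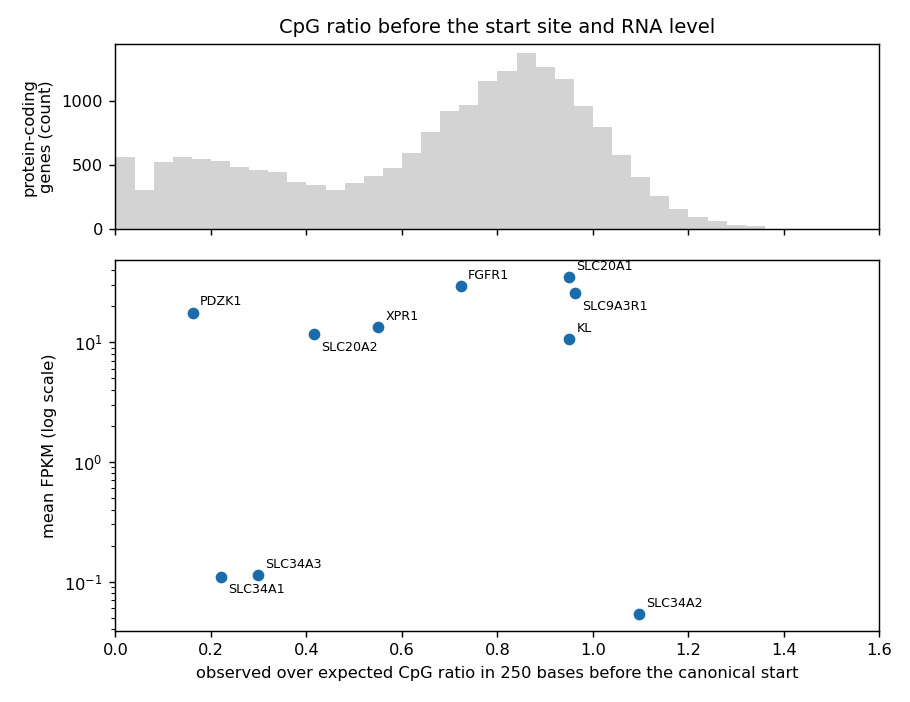
Observed over expected CpG ratio in the 250 bases before the canonical start, as a histogram of 19546 protein-coding genes (upper panel) and against mean FPKM on a log axis for the 10 genes (lower panel). PDZK1 lies at 0.163 with 17.7 FPKM and SLC34A2 at 1.10 with 0.0536 FPKM. The PDZK1 ratio belongs to bases downstream of the annotated start of its leading transcript.

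The letters show these differences. The sequences below were read from GRCh37 (hg19), plus strand, and stop at the canonical start or at the first exon of a coding transcript before it. Capitals mark 4 motifs, searched on both strands: the GC box GGGCGG, the CCAAT box, the TATA box TATAAA and GTTAAT, a half-site of the HNF1 factors. These were held by 59.5%, 34.3%, 9.22% and 4.26% of promoters over 250 bases. The printed stretches of PDZK1 and SLC34A2 are shorter. SLC20A1 and KL are shown as marked, expressed genes with many CpG, and PDZK1 as an expressed gene with few before its canonical start. The leading PDZK1 transcript starts upstream of the printed window, at 145726918, and the bases before that start were not examined. SLC34A2 is shown as a gene with many CpG and no H3K27ac within 1 kb of a start. SLC34A1 is shown as the unmarked canonical start of the renal cotransporter.
SLC20A1, chr2:113403266-113403515: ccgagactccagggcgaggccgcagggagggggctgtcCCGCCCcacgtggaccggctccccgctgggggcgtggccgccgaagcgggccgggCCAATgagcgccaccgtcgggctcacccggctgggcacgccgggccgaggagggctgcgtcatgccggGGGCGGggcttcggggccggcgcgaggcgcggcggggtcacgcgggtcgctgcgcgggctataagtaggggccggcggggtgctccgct
KL, chr13:33590311-33590560: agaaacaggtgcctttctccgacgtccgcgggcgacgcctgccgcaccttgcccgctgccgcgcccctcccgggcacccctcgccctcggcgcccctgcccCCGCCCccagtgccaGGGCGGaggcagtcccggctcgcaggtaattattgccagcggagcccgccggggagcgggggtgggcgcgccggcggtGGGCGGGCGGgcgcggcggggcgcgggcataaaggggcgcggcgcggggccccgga
PDZK1, chr1:145727448-145727665: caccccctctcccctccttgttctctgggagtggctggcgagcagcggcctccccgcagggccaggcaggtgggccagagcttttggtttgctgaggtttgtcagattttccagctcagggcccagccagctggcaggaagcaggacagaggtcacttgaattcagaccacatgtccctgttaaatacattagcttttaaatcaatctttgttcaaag
SLC34A2, chr4:25657223-25657443: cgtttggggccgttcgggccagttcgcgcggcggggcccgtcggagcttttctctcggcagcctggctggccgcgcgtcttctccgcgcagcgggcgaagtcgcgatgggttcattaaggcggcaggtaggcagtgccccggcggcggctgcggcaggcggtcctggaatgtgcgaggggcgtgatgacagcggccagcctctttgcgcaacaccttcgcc
SLC34A1, chr5:176811185-176811434: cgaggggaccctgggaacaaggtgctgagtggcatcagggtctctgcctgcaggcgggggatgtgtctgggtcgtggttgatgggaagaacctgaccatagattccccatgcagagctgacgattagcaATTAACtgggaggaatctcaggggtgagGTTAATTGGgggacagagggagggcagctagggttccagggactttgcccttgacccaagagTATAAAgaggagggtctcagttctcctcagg

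SLC20A1 held 2 GC boxes and a CCAAT box, and KL held 4 GC boxes, a pair of which overlap. The KL window had 38 CpG in 250 bases and the PDZK1 window printed above had 3 in 218 bases, with none of the 4 motifs. The SLC34A2 window, with 30 CpG in 221 bases, also held none of them. The full 250 bases before the canonical starts of PDZK1 and SLC34A2 held none either. The SLC34A1 window held TATAAA, 2 copies of GTTAAT and a CCAAT box, which overlaps one of those copies on the opposite strand. XPR1, not printed, held 4 GC boxes and 1 GTTAAT. A match is a string of letters and not a site shown to be bound.

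The other genes of phosphate handling, from 5 lists, gave the setting of these levels. Each count of expressed genes below stands beside 58.8% of all protein-coding genes. Of the other phosphate carriers 3 of 7 were expressed. They were SLC25A3, which brings phosphate into mitochondria, at 193 FPKM, SLC37A4, the glucose 6-phosphate carrier of the endoplasmic reticulum, at 7.76, and ANKH, which serves the export of pyrophosphate, at 3.56. The lowest were SLC17A2 and SLC17A4, at 0.0258 and 0.0316 FPKM. Of the hormone and receptor genes 5 of 10 were expressed, led by STC2 (stanniocalcin 2) at 32.2, FGFR3 at 22.4 and FGFR4 at 16.1 FPKM, while the hormone genes FGF23 and PTH were listed at 0. Of the scaffold and membrane anchor genes 5 of 6 were expressed. MSN and EZR, which tie membrane proteins to actin, had 205 and 201 FPKM and PDZK1IP1, a partner of PDZK1, had 45.5, while SLC9A3, the sodium-proton exchanger that SLC9A3R1 is named for, had 0.304 FPKM and SLC9A3R2 had 12.5.

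Markers of kidney cells place these values. Here too the share beside each count of expressed genes is 58.8% of all protein-coding genes. Of 12 proximal tubule markers 3 were expressed, GGT1 at 61.1, MIOX at 11.8 and SLC5A2 at 1.96 FPKM, while LRP2, SLC22A6, SLC22A8 and HNF4A were listed at 0 in both libraries. SLC34A1 and SLC34A3, themselves specific to this segment, were thus low together with most of its markers, and the part of the cell line's state in this was not tested. Of 6 kidney epithelium markers 4 were expressed, KRT8 at 182, CDH6 at 116, PAX8 at 102 and KRT18 at 56.1 FPKM. PAX2, at 0.386 FPKM, and CDH1, at 0.247 FPKM, were not. Of 5 loop of Henle and distal markers and 2 measured endothelial markers 0 were expressed. Podocyte, fibroblast and immune lists had 1 expressed gene each, PODXL at 5.13, COL1A1 at 40.1 and CD68 at 39.6 FPKM, and PTPRC and CD3E were listed at 0.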

How the data were processed

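RNA-seq of 2 HK2 libraries and ChIP-seq of 3 marks with 2 replicates each were used. The input DNA and the HiChIP libraries were not used here. For ChIP-seq, the authors used Bowtie2 on hg19 and ran MACS2 separately on each replicate. The deposited lists hold positions without a score, and the number of reads under each peak cannot be taken from them. The paper reports a smaller share of reads inside peaks for the second replicate of H3K27ac and of H3K4me3 than for the first. For H3K27me3 the reported share was below those of the other marks in both replicates. The effect of these shares on missing peaks was not tested. The authors deposited FPKM, TPM and coverage per transcript from StringTie 1.3.3 with the GENCODE 27 annotation of GRCh38, although the methods name hg19 and HISAT2. FPKM was summed over the transcripts of a gene. Genes were joined to the GENCODE version 44 annotation lifted to hg19 by Ensembl identifier, never by position. With 1 condition and no counts, neither a count model nor a test was run.

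In the ChIP-seq labels only replicate 2 is numbered, and the unnumbered sample was called replicate 1. Nothing says whether the replicates came from separate cultures, so SDs may be technical. Percentiles of FPKM are average ranks among protein-coding genes, so tied genes share a value. Percentiles of the CpG ratio are the share of promoters with a lower ratio. Peak overlap was tested on simulated data. Python 3.11.15, numpy 2.4.6, pandas 2.3.3 and matplotlib 3.10.9 were used.

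The 10 genes and the lists were chosen with earlier results of these data known. All 10 are named. Of each of the 5 other phosphate lists the 3 genes of highest and the 2 of lowest mean FPKM are named. Marker genes and copies or neighbours of the 10 genes were named where a result touched them, after their values were seen, as were the motifs searched. Alternatives covered the FPKM threshold, pseudocount, TPM, low values, leading transcripts, the window around start sites, peak width, overlap and each replicate.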

Additional observations from a re-analysis of the deposited data

How the results depend on the processing

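The number of expressed genes was 7 with a threshold of 0.5 or 5 FPKM, with TPM and in each library alone, and 6 when only the leading transcript was counted, which dropped FGFR1. The median of log2(FPKM + 1) over the 10 genes was 3.75, beside 2.11 over protein-coding genes, and 5.15 with TPM, where that of protein-coding genes also rose, to 3.35; leaving out a library gave 3.67 to 3.89. The number of genes with an active promoter was 8 with a peak in either replicate. It was 8 without replicate 2, beside 64.8% of protein-coding genes, and 4 without replicate 1, beside 52.7%. It was 3 at canonical starts only, where SLC20A2 was lost. H3K27me3 near a start was found in 1 gene with a peak in either replicate or within 2 kb. It was also found in 1 without replicate 2, beside 14.5%, and in 1 without replicate 1, beside 13.0%. H3K27ac in the gene body was found in 5 genes leaving out 1 kb around start sites, beside 22.0%, against 8, beside 59.4%. For the other settings the share of all protein-coding genes is not given, so those counts have no background beside them. No paired analysis was possible because no 2 groups of samples were compared by a test. Peaks carry no score, so a missing peak may be a region below the caller's threshold, and low FPKM values rest on very little aligned sequence.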

Other observations

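Enzymes that make inositol pyrophosphates, the ligands that regulate XPR1, were expressed in 4 of 5 cases, beside 58.8% of protein-coding genes. IP6K2 had 31.3 ± 2.96, IP6K1 16.0 ± 2.22 and PPIP5K1 6.88 ± 0.122 FPKM (SD, n = 2), with PPIP5K2 at 6.12 ± 1.11 and IP6K3, at 0.602 ± 0.0451, the only one below 1. IP6K1, IP6K2 and PPIP5K2 had an active promoter in both replicates, which is 3 of 5, beside 52.5% of protein-coding genes.

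Of 8 genes of mineralization and FGF23 processing, 4 were expressed, beside 58.8% of protein-coding genes. FAM20C, the kinase that phosphorylates FGF23, had 29.6 ± 1.84 FPKM, FURIN, a protease that cleaves it, had 12.2 ± 0.452, and ENPP1, which makes pyrophosphate, had 8.33 ± 0.275. DMP1, at 0.00986 FPKM, and ALPL, the phosphatase that removes pyrophosphate, at 0.404 FPKM, were lowest. ALPL had an active promoter in both replicates although its RNA was below 1 FPKM in both libraries. In this list 5 of 8 genes had an active promoter, beside 52.5% of protein-coding genes.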
